A study of Mus musculus with 2 samples.

Results

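Many genes can be read from more than 1 starting point, and in the mouse urinary bladder 1124 autosomal protein-coding genes had open chromatin at several such points. They were chosen by rule. A gene entered when at least 2 of its annotated transcription start sites (TSSs), over 10 kb apart, each had an accessible region centred within 500 bp, and the region held a DNase-seq peak in both libraries of the study. These genes were 15.3% of the 7353 autosomal protein-coding genes with TSSs that far apart, out of 20807 such genes in all. Of the rest, 5219 were open within 10 kb only and 1010 had no open TSS. The members' promoters made up 2826 regions, or 3.86% of the 73164 regions that both libraries shared. Open TSSs were collected into promoter groups within 10 kb of the group's first TSS, and 963 genes had 2 such groups, 127 had 3, 18 had 4 and 16 had 5. The distance between the outermost open TSSs of a gene had a median of 40.4 kb, with quartiles of 20.95 and 96.8 kb.

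An alternative promoter lets 1 gene make transcripts with different first exons. Where the start of translation lies in the first exon, the choice of promoter also changes the N-terminus of the protein, and a promoter deep inside a gene can give a short protein that lacks whole domains. Promoters fall into a CpG-rich kind, which is open in most tissues, and a CpG-poor kind, which is more often open in particular cell types. The urinary bladder holds a lining of urothelium, layers of smooth muscle, and connective tissue with vessels and nerves. Cytoskeletal linkers, kinases and growth factor receptors of such tissues are textbook cases of genes with several promoters.

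Accessibility was measured by DNase-seq, in which the nuclease DNase I cuts DNA where it is open and the cut ends are sequenced, in bladders of male B6CASTF1/J mice aged 14 days. Such mice come from a cross of the inbred strains C57BL/6J and CAST/EiJ, and the deposited lists give 1 value per peak with the parental alleles together. There was 1 group of 2 libraries, replicate 1 from a male and replicate 2 from a pool of 3 males, and no treatment or second tissue. Each promoter was described by the authors' density at its highest peak, called signal here, in each library. Replicate 1 had 139821 peaks and replicate 2 had 82225. In tissue, fewer open cells and less opening per cell cannot be told apart. The comparisons are between the most 3′ open promoter of a gene, called downstream, and its most 5′ open promoter, called upstream. Since the members were chosen by their peaks in these libraries, and 2 libraries allow no exact p below 0.5, the values are a description without tests.

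The labelled tissue was checked against its markers. Of the urothelial markers 15 of 16 had an open TSS, the exception being Trp63, a factor of basal epithelial cells. All 14 smooth muscle markers and 9 of 10 stromal markers were open, as were 5 of 10 endothelial and 5 of 9 autosomal nerve and glia markers. Of 10 immune markers 2 were open, and Ptprc, the general leukocyte marker, was not among them. None of 10 liver markers was open. Few of these markers were members: Mylk and Cald1 of the 14 for smooth muscle, Gata3 of the 16 for urothelium and Eng of the 10 for endothelium. The other lists had none. Of all 20807 autosomal protein-coding genes 1124 were members, so membership is not read as a trait of these markers. In the list that holds Eng, Pecam1, Cdh5, Tie1, Emcn and Robo4 had no open TSS.

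The sequences of 4 genes show what the outer promoters of a gene can look like. Chp1 and Mylk had the weaker signal downstream, and Plec and Dlc1 had it upstream. Each sequence is the 150 bp at the centre of the region, on the gene's strand, from the RefSeq assembly GRCm38.p6 (mm10), with each CpG dinucleotide in capitals.
Chp1 downstream (chr2:119558955-119559104, plus strand): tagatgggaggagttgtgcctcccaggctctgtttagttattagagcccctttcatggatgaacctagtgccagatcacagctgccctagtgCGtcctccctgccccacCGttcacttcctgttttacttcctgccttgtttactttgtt
Chp1 upstream (chr2:119547565-119547714, plus strand): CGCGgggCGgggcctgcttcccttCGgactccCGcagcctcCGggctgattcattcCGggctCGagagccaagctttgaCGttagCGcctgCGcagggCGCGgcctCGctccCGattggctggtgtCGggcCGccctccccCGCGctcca
Mylk downstream (chr16:34994895-34995044, plus strand): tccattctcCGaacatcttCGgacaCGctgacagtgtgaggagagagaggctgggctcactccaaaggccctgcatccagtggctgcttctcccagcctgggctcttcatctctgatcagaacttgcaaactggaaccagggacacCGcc
Mylk upstream (chr16:34745125-34745274, plus strand): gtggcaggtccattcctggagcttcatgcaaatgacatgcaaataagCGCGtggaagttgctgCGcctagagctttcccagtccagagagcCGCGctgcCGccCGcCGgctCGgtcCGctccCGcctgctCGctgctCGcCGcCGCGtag
Plec downstream (chr15:76195705-76195854, minus strand): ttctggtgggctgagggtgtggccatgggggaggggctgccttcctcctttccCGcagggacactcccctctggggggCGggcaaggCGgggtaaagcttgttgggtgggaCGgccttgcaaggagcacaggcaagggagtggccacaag
Plec upstream (chr15:76232587-76232736, minus strand): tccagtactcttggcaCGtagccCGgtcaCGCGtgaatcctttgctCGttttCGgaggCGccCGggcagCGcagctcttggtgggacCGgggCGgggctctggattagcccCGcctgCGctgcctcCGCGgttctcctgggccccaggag
Dlc1 downstream (chr8:36613905-36614054, minus strand): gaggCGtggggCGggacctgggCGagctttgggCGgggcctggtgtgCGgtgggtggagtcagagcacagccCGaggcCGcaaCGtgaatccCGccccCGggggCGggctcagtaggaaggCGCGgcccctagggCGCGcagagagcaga
Dlc1 upstream (chr8:36953055-36953204, minus strand): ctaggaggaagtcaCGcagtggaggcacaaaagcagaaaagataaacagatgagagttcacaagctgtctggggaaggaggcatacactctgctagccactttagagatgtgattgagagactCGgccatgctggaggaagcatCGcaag
The capitals are unevenly spread between the promoters of a gene. Chp1 had 2 CpG dinucleotides in the downstream window and 19 in the upstream one, and Mylk had 4 downstream and 16 upstream. Dlc1 was the other way round, with 15 downstream and 3 upstream. In these 3 genes the promoter with more CpG was also the more open one. Plec went the other way, since its downstream window, with 4 CpG against 15 upstream, was the more open.

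Across the 1124 genes the downstream promoter was usually the less accessible one. Its median signal was 1.57 in replicate 1 and 1.17 in replicate 2, against 3.51 in replicate 1 and 2.94 in replicate 2 at the upstream promoter. The median log2 difference, downstream minus upstream, was -1.06 in replicate 1 and -1.12 in replicate 2, about a 2-fold lower signal. The downstream promoter was lower in both libraries in 746 genes (66.4%) and higher in both in 294 (26.2%), while 84 genes (7.47%) differed in direction between the libraries. A call was set at a 2-fold difference in the same direction in both libraries. By this rule the downstream promoter was lower in 546 genes (48.6%) and higher in 133 (11.8%), and 445 genes lay within that range in at least 1 library. No gene differed 2-fold in opposite directions. With peaks of 1 library alone, which change the outermost promoters, the 2-fold difference was asked of that library only. By replicate 1 alone, whose peaks add weaker regions, 978 of 1658 genes (59.0%) were 2-fold lower downstream and 241 (14.5%) higher. By replicate 2 alone 634 of 1190 genes (53.3%) were lower and 154 (12.9%) higher.

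The differences between genes were larger than the spread between libraries. The log2 difference had an SD of 1.82 across genes, and a pooled SD between the libraries of 0.35 (n = 2 per gene). Across the 1124 genes the libraries' differences had a Pearson correlation of 0.965, for values that share the genome sequence and the annotation. The level of one promoter said little of the other: the log2 signals of the downstream and upstream promoters had a Pearson correlation across genes of 0.036 in replicate 1 and 0.018 in replicate 2. All signals were whole multiples of a step per library, within 0.1 steps. In replicate 1 the median downstream promoter held 301 steps, and in replicate 2 147. Were each step a single cut, which no source used here states, its 95% Poisson interval was 1.40 to 1.75 in replicate 1 and 0.993 to 1.38 in replicate 2. At the median upstream promoter, with 675 and 368 steps, the intervals were 3.25 to 3.79 in replicate 1 and 2.65 to 3.26 in replicate 2. They cover counting error only.

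**Figure D1:**
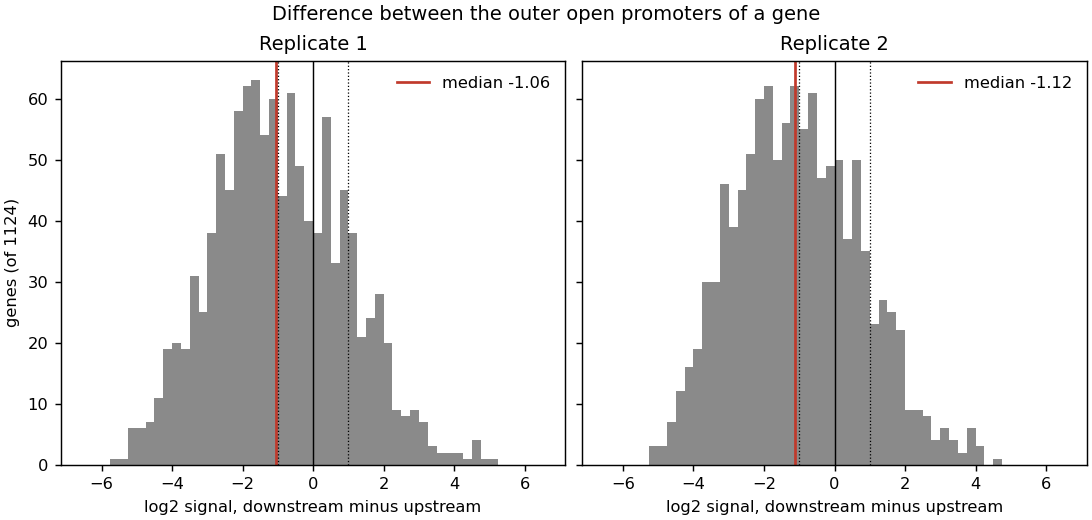
Histograms of the log2 signal difference between the downstream and the upstream promoter of each of the 1124 genes, with replicate 1 on the left and replicate 2 on the right. The red line marks the median, -1.06 in replicate 1 and -1.12 in replicate 2, the solid black line no difference and the dotted lines a 2-fold difference. Most genes lie to the left of no difference, with a smaller group to the right.

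Neighbouring promoters of different genes gave a scale for these differences. Among 10520 pairs of open promoters of neighbouring genes over 10 kb apart, 53.4% differed at least 2-fold either way in both libraries, against 60.4% of the member genes. The share of unequal promoters among the members was thus near that of promoters of different genes. The second promoter along the chromosome was 2-fold lower in 26.5% of the pairs and higher in 26.9%, but this order is not that of transcription, so these shares give no scale for the members' direction. The median size of the difference, without its sign, was 1.56 in replicate 1 and 1.53 in replicate 2 for the members, and 1.29 and 1.27 for the neighbours.

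Among the genes with the lowest downstream promoter relative to the upstream one were enzymes, signalling regulators and a scaffold of repressor complexes. Arhgap12, an activator of GTP hydrolysis by small GTPases, had signals of 0.411 in replicate 1 and 0.416 in replicate 2 at the downstream promoter, against 19.8 and 13.6 at the upstream promoter. The log2 difference was -5.31 ± 0.39 (SD, n = 2), the largest of all members in this direction. Chp1, a calcium-binding partner of sodium-proton exchangers, had 0.479 and 0.384 downstream, against 16.8 and 11.3 upstream, and its upstream region also holds a TSS of Exd1. Both upstream promoters had far more signal than the median upstream promoter, and both downstream ones less than the median downstream promoter, in both libraries.

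Lonp2, a peroxisomal protease, had 0.406 in replicate 1 and 0.336 in replicate 2 at the downstream promoter, against 12.8 and 10.8 at the upstream promoter. Rps6kb1, the S6 kinase that acts below mTOR, had 0.536 and 0.424 downstream, against 17.3 and 12.9 upstream. Its upstream region also holds a TSS of Tubd1. Phlpp1, a phosphatase that acts on Akt, had 0.620 in replicate 1 and 0.520 in replicate 2 at the downstream promoter, against 18.6 and 14.7 at the upstream promoter. In each of these genes, picked for the size of the difference, the libraries lay far closer to each other than to the other promoter's values. Sin3b, a scaffold of histone deacetylase complexes, had 0.276 and 0.288 downstream, against 9.04 and 7.41 upstream. Ip6k1, an inositol phosphate kinase, had 0.781 in replicate 1 and 0.504 in replicate 2 at the downstream promoter, against 23.1 and 13.2 at the upstream promoter. The mean log2 differences of these 5 genes ran from -5.00 in Lonp2 to -4.80 in Ip6k1. These 7 genes have their principal coding transcript, as the annotation ranks transcripts, at the upstream promoter only, and their downstream TSS lies past the start codon of that transcript. No coding transcript starts at the downstream promoters of Rps6kb1, Phlpp1 and Sin3b. All 7 upstream promoters were CpG-rich and none of the 7 downstream ones was. The upstream regions of Phlpp1 and Ip6k1 also hold a TSS of another annotated gene each, Gm20753 and 4930535L15Rik. With the stricter peak lists only Sin3b of the 7 still had both promoters open, and with equal numbers of peaks only Phlpp1 and Ip6k1. In all, 34 genes had a downstream promoter at least 16-fold lower in both libraries.

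At the other end, 4 genes, with Dlc1, Nsun2 and Nedd9 among them, had a downstream promoter at least 16-fold higher in both libraries. Trmt13, a tRNA methyltransferase, had 16.4 and 10.2 downstream, against 0.578 and 0.664 upstream. Its downstream region at chr3:116594841-116595040 also holds a TSS of Sass6 on the other strand. Dlc1, a GTPase-activating protein known as a tumour suppressor, had 7.38 in replicate 1 and 7.11 in replicate 2 at the downstream promoter, against 0.292 and 0.440 at the upstream promoter, a log2 difference of 4.34 ± 0.46 (SD, n = 2). The upstream promoter group of Dlc1 also holds a stronger region, at a TSS 0.701 kb further along the gene, with 1.38 in replicate 1 and 1.40 in replicate 2. Between the strongest promoters the difference was 2.38, as it was with the stricter peak lists, where the region used above is not outermost.

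Nsun2, an RNA cytosine methyltransferase, had 14.4 and 10.2 downstream, against 0.630 and 0.608 upstream, with Srd5a1 sharing the downstream and Tent4a the upstream region. Pnrc1, a nuclear receptor coactivator, had 15.04 in replicate 1 and 11.9 in replicate 2 at the downstream promoter, against 0.609 and 0.775 at the upstream promoter. No coding transcript of Pnrc1 starts at either region. Nedd9, a scaffold protein of focal adhesions, had 7.69 and 6.34 downstream, against 0.364 and 0.392 upstream, its upstream region also at a TSS of Gm32401. The same order of the promoters in both libraries was a condition for naming the genes at either end, so it is no result. Ppp2r3d, a regulatory subunit of protein phosphatase 2A, had 10.7 in replicate 1 and 6.91 in replicate 2 at the downstream promoter, against 0.443 and 0.528 at the upstream promoter. Atp2c1, the calcium and manganese pump of the Golgi, had 10.4 and 9.47 downstream, against 0.604 and 0.632 upstream. The stricter peak lists gave Nsun2 a value of 2.99, and peaks of replicate 1 alone gave Ppp2r3d 5.44, each with other outermost regions. Trmt13, Nedd9 and Ppp2r3d no longer had both promoters open with the stricter lists, nor Nedd9 with equal numbers of peaks. Of the 7 downstream promoters described here all but that of Nedd9 were CpG-rich, and of the 7 upstream promoters only that of Nsun2 was.

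CpG content split the genes by the direction of the difference. A promoter was called CpG-rich when the 300 bp from 250 bp before to 50 bp after the TSS had a GC content of at least 50% and a ratio of observed to expected CpG of at least 0.6. Of the downstream promoters 289 (25.7%) were CpG-rich, against 759 (67.5%) of the upstream ones. The median GC content was 55% downstream and 63.7% upstream, and the median CpG ratio was 0.372 downstream and 0.735 upstream. Within a gene the downstream promoter had the lower CpG ratio in 859 genes (76.4%).

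The 580 genes with a CpG-rich upstream promoter only had a median log2 difference of -1.85 in replicate 1 and -1.95 in replicate 2. Of these, 387 were 2-fold lower downstream and 21 higher. The 110 genes with a CpG-rich downstream promoter only had medians of 0.89 and 0.84, and here 9 genes were 2-fold lower and 44 higher. Where both promoters were CpG-rich, in 179 genes, the medians were near 0, at -0.31 and -0.20, with 53 genes lower and 40 higher. Where neither was, in 255 genes, the medians were -0.67 and -0.76, with 97 genes lower and 28 higher. So the median ran to the other side where only the downstream promoter was CpG-rich, was nearest to 0 where both were, and stayed below 0 where both were CpG-poor.

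**Figure D2:**
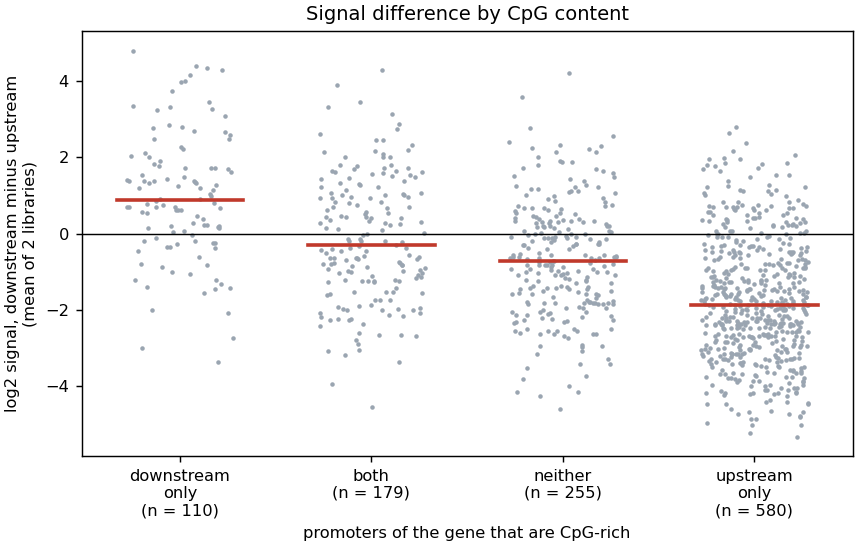
Mean log2 signal difference of the 2 libraries, downstream minus upstream, for each gene (grey points, spread sideways at random), by which of the outer promoters is CpG-rich. Red bars mark the medians. The points of the 110 genes with a CpG-rich downstream promoter only lie mostly above 0, and those of the 580 genes with a CpG-rich upstream promoter only mostly below.

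The downstream promoters were set beside other kinds of regions. Promoters between the outermost ones, called internal, had medians of 1.505 in replicate 1 and 1.28 in replicate 2, close to those of the downstream promoters, and 44.1% of them were CpG-rich. Accessible regions between the outer promoters and over 1 kb from any TSS had medians of 1.16 and 0.855, and 3.28% of these 3045 were CpG-rich. They have no TSS to set the window, so this share is not measured at the same place as those of the promoters. The promoters of genes with TSSs equally far apart but open within 10 kb only had medians of 4.95 and 4.29, above those of the members' upstream promoters, and 70.4% were CpG-rich. Of those 5219 genes, 4848 (92.9%) were open near their most 5′ TSS. The ranges between the quartiles overlap, except those of the regions away from any TSS and of the promoters of genes open within 10 kb only.

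**Figure D3:**
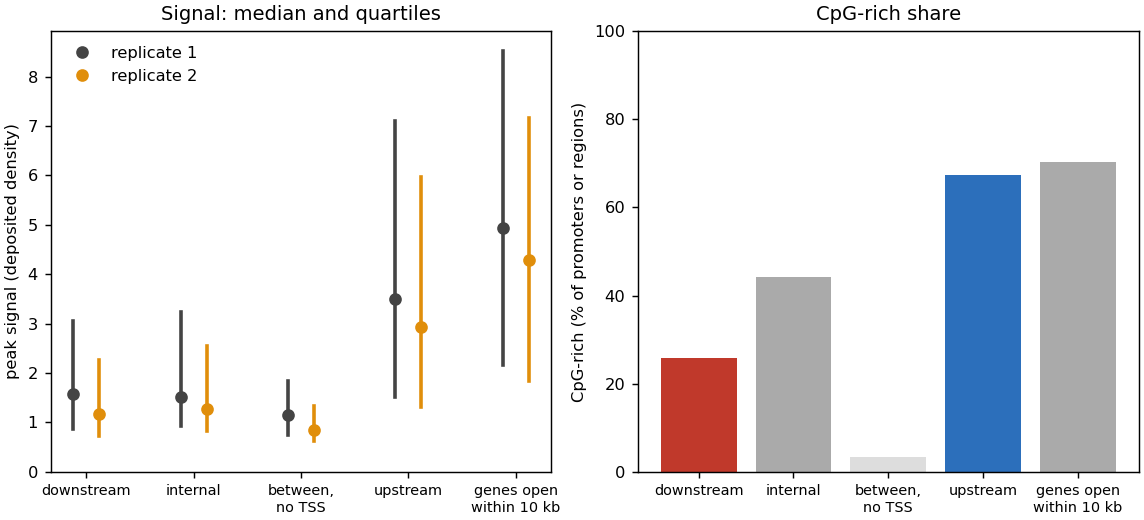
Left, the peak signal in each library (point, median; line, quartiles) of downstream and internal promoters, of regions between the outer promoters away from any TSS, of upstream promoters, and of promoters of genes with distant TSSs that were open within 10 kb only. Right, the CpG-rich share of each, where regions away from any TSS have no TSS to set the window. Downstream and internal promoters have medians between 1.17 and 1.57, and upstream promoters of 3.49 in replicate 1 and 2.93 in replicate 2, counting each region once.

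The annotation of the promoters differed in the same way. A coding transcript starts at the downstream promoter in 645 genes (57.4%), against 1049 (93.3%) at the upstream promoter. The principal transcript starts at the downstream promoter in 285 genes (25.4%) and at the upstream one in 755 (67.2%). Where only the upstream promoter has it, in 661 genes, the median log2 difference was -1.54 in replicate 1 and -1.67 in replicate 2. Where only the downstream promoter has it, in 191 genes, the medians were -0.02 and -0.04, with 50 genes 2-fold lower and 54 higher. Where both promoters have it, in 94 genes, the medians were -0.65 and -0.60, with 38 genes lower and 14 higher, and where neither has, in 178 genes, they were -0.62 and -0.61. Of these 4 sets, the 191 genes with it downstream only had the medians nearest to 0.

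In 757 genes the downstream TSS lies past the most 5′ start codon of the gene's principal transcripts, so that transcripts from it cannot include that codon. A principal transcript can still start at the downstream region of such a gene, as in Abl1. These genes had medians of -1.29 and -1.38, against -0.58 and -0.57 in the 365 genes where it lies before the codon (2 genes have no annotated start codon). The 479 downstream promoters with no coding transcript had medians of -1.49 and -1.73, against -0.65 in both libraries for the 645 with one. The difference had no steady relation to distance: the medians were -0.82 and -0.86 in the 268 genes with 10 to 20 kb between the outer TSSs, -1.27 and -1.33 in the 365 with 20 to 50 kb, -1.04 and -1.11 in the 222 with 50 to 100 kb, -1.10 and -1.20 in the 158 with 100 to 200 kb, and -0.52 and -0.60 in the 111 with over 200 kb. A TSS of another gene lay at 79 downstream regions (7.03%) and 268 upstream regions (23.8%). Where the downstream region was so shared, the median log2 difference was 0.09 in replicate 1 and 0.17 in replicate 2, with 23 genes 2-fold lower and 15 higher. Where the upstream region was, it was -1.25 and -1.50, with 143 lower and 29 higher. Over the 802 genes with neither, it was -1.06 and -1.10, with 386 lower and 93 higher.

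Motifs were counted in the 200 bp at each region's centre, on both strands. The GC box GGGCGG, read by Sp and Klf factors, was in 30.7% of downstream and 67.4% of upstream promoters, against 53.7% of all 21436 shared promoter regions. The Ets motif CCGGAAG was in 3.47% of downstream and 9.74% of upstream promoters (10.9% of all promoters), and CCAAT, read by NF-Y, in 20.9% and 30.2% (25.01%). The AP-1 motif TGANTCA ran the other way, with 10.3% of downstream and 3.04% of upstream promoters, against 4.47% of all promoters and 16.7% of the regions between the outer promoters. GGAATG, read by Tead factors, was in 11.7% of downstream and 5.45% of upstream promoters (7.73% of all), and the E-box CAGCTG in 21.9% and 12.3% (13.3%). TATAAA was rare at both, at 2.40% downstream and 2.06% upstream (2.67% of all). The regions between the outer promoters had GGAATG in 15.6%, CAGCTG in 22.2% and TATAAA in 5.06%, each above the downstream share. They had GGGCGG in 12.6%, CCGGAAG in 1.74% and CCAAT in 18.5%, each below it.

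Among the other motifs the longer GC box GGGGCGGGG, which contains the shorter one, was in 8.10% of downstream and 23.1% of upstream promoters (15.6% of all). GATAAG, read by Gata factors, was in 4.54% and 2.32% (2.72%), TGTTTAC, read by forkhead factors, in 2.67% and 1.34% (1.76%), and the E-box CACGTG in 4.98% and 5.99% (6.85%). The cyclic AMP response element TGACGTCA was in 1.25% and 1.97% (2.30%), and the palindromic Nrf1 motif in 0.623% and 1.88% (1.33%). The NFI motif was in 1 downstream and 1 upstream promoter, and a CArG box of serum response factor in none of either. The regions between the outer promoters had GATAAG in 6.90% and TGTTTAC in 3.71%, each above the downstream share. They had GGGGCGGGG in 2.30%, CACGTG in 4.43%, TGACGTCA in 0.591% and the Nrf1 motif in 0.164%, each below it. Both GC boxes, the Ets motif, CACGTG, TGACGTCA and the Nrf1 motif hold a CpG, and the CpG content given above was also lower downstream. Its part in these shares was not tested. A match describes letters in a window and not bound protein.

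Footprints, the short protected stretches that the authors called within open DNA, were fewer downstream. At least 1 footprint lay in 94.9% of downstream regions in replicate 1 and 90.7% in replicate 2, against 97.3% and 95.6% of upstream regions. Per kb of region there were 12.2 and 10.7 downstream, against 14.6 and 13.9 upstream. The downstream region held fewer footprints than the upstream one in 661 genes in replicate 1 and 704 in replicate 2, and more in 308 and 295. The downstream regions also had the lower signal given above, and its part in these counts was not tested.

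Genes known for alternative promoters were a list of 48, of which 28 were members, out of 46 with distant TSSs (60.9%). Of all 7353 autosomal protein-coding genes with distant TSSs 15.3% were members. Their 2-fold differences ran about equally to both sides: 5 were 2-fold lower downstream, 6 higher and 17 neither, with medians of 0.32 in replicate 1 and 0.15 in replicate 2. Over all members 48.6% were lower and 11.8% higher. The principal transcript starts at neither outer promoter in Mylk, Plec, Lmna, Dst, Macf1, Tcf7l2, Rxra, Foxp1, Pde4b, Pde4d, Nrg1, Bdnf, Gnas, Col18a1 and Ank3. No coding transcript starts at the downstream promoter of Gnas or Rxra. The list was written with earlier results of these data known, and it is described, not tested.

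Among its cytoskeletal genes, Mylk encodes the myosin light chain kinase of smooth muscle, and a promoter near its 3′ end is known to give telokin, a short protein made of the kinase's C-terminus. The Mylk downstream region, at chr16:34994861-34995080, lies at such a 3′ TSS. Its signal was 0.994 in replicate 1 and 0.927 in replicate 2, against 6.59 in replicate 1 and 3.81 in replicate 2 at the upstream promoter, at chr16:34745061-34745340, 249.6 kb away. The log2 difference was -2.38 ± 0.49 (SD, n = 2), and in both libraries the downstream promoter was the lower. With the stricter peak lists Mylk no longer had both promoters open. The TSS at the Mylk upstream region belongs to a transcript annotated as non-coding, the principal coding transcript starts at neither region, and the deposited data do not show which transcripts the promoters make.

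Plec, which encodes plectin, a linker of intermediate filaments to adhesion sites, has many first exons that give it different N-termini. It had 11 open regions, the downstream one with 7.24 in replicate 1 and 4.72 in replicate 2, against 1.67 and 1.18 upstream. The log2 difference was 2.06 ± 0.083 (SD, n = 2). Lmna, the gene of the nuclear lamins A and C, had 12.7 in replicate 1 and 8.84 in replicate 2 at the downstream promoter, against 9.91 and 6.47 at the upstream promoter, so both promoters were strongly open, with a log2 difference of 0.40 ± 0.070 (SD, n = 2). With regions counted up to 1 kb from a TSS, another region is outermost in Lmna and the value was -1.85. Epb41, the red cell membrane protein 4.1, which other cells also make, had 4.40 and 3.84 downstream, against 13.5 and 10.6 upstream, and was 2-fold lower downstream. Dst and Macf1, both giant linkers of actin and microtubules, stayed within 2-fold, with log2 differences of 0.82 ± 0.097 and 0.71 ± 0.19. So did Cald1, the actin-binding caldesmon, at -0.29 ± 0.48 (SD, n = 2). Gsn, the actin-severing gelsolin, was at -0.73 ± 0.50 (SD, n = 2), with the 2-fold difference in replicate 1 only. The value of Dst was 3.01 with peaks of replicate 1 alone. That of Macf1 was -2.41 between its 2 most upstream promoters and with transcripts of support level 1, where the lower promoter is its middle one with 0.510 in replicate 1 and 0.440 in replicate 2. Cald1 no longer had both promoters open with the stricter lists.

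Among transcription factors of the list, Mitf, known for cell-specific first exons in melanocytes, had 0.422 in replicate 1 and 0.552 in replicate 2 at the downstream promoter, against 4.87 and 4.05 at the upstream promoter. Ppard, a fatty acid-sensing nuclear receptor, had 1.91 and 1.32 downstream, against 12.9 and 9.82 upstream, and Tcf7l2, an effector of Wnt signalling, had 1.33 in replicate 1 and 1.29 in replicate 2 at the downstream promoter, against 5.96 and 4.52 at the upstream promoter. These 3 were 2-fold lower downstream in both libraries. The retinoid receptor genes stayed within 2-fold. Rara had 3.33 and 2.89 downstream, against 4.87 and 4.26 upstream, and the log2 differences of Rarg and Rxra were 0.72 and -0.08. Tcf4, an E-protein, had 4.27 in replicate 1 and 3.80 in replicate 2 at the downstream promoter, against 5.84 and 5.17 at the upstream promoter, with a weak promoter group of 0.484 and 0.632 between them. Foxp1, a forkhead repressor, had 4 open promoter groups between 0.592 and 1.97, its outer ones within 2-fold. Peaks of replicate 1 alone put another region outermost in Rara, with a value of 1.95. The stricter lists left Mitf with no second open promoter.

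Among signalling genes, Pde4b, a phosphodiesterase that breaks down cyclic AMP, had 1.67 and 1.53 downstream, against 0.292 and 0.368 upstream, and was 2-fold higher downstream. Its value was 0.92 with peaks of replicate 1 alone. Nrg1, a ligand of the ErbB receptors, had 0.968 in replicate 1 and 1.10 in replicate 2 at the downstream promoter, against 0.307 and 0.408 at the upstream promoter, also 2-fold higher downstream, where a TSS of Gm26578 lies as well. With peaks of replicate 2 alone, other regions were outermost in Nrg1 and the value was -0.50. With the stricter lists neither Pde4b nor Nrg1 still had both promoters open. Fgfr2, the receptor with an epithelial and a mesenchymal splice form, had 4.98 and 4.03 downstream, against 1.86 and 1.86 upstream. It had the longest spacing of all members, 2857 kb, because 1 annotated transcript starts that far upstream, at a region that also holds a TSS of Ctbp2. With peaks of replicate 1 alone, other regions were outermost in Fgfr2 and the value was -1.79.

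Fgf1, a ligand of these receptors, had 3.13 in replicate 1 and 2.20 in replicate 2 at the downstream promoter, against 1.35 and 0.919 at the upstream promoter, and was 2-fold higher downstream, but with peaks of replicate 1 alone, which move the outermost promoters, its value was -1.51. Prlr, the prolactin receptor, had 2.03 and 0.935 downstream, against 0.609 and 0.536 upstream, with the 2-fold difference in replicate 1 only. Bdnf, a neurotrophin with many first exons, had 0.521 in replicate 1 and 0.648 in replicate 2 at the downstream promoter, against 1.48 and 0.759 at the upstream promoter, weak at both ends. Grb10, an imprinted adaptor that dampens insulin signalling, had 0.521 and 0.696 downstream, against 1.28 and 1.18 upstream, also with the 2-fold difference in replicate 1 only. Gnas, an imprinted gene for a G protein subunit with several promoters, had its strongest open promoter in the middle. In order along the gene its 3 groups had 0.859, 3.50 and 1.59 in replicate 1, and 0.863, 3.76 and 1.20 in replicate 2. Col18a1, the gene of collagen XVIII, was also strongest in the middle, with 2.04, 3.90 and 2.67 in replicate 1 along the gene and 1.57, 2.75 and 1.61 in replicate 2. Ank3, an ankyrin, stayed within 2-fold, at 0.28. The value of Bdnf was -2.87 with peaks of replicate 1 alone, and with the stricter lists that of Grb10 was 0.67.

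**Figure D4:**
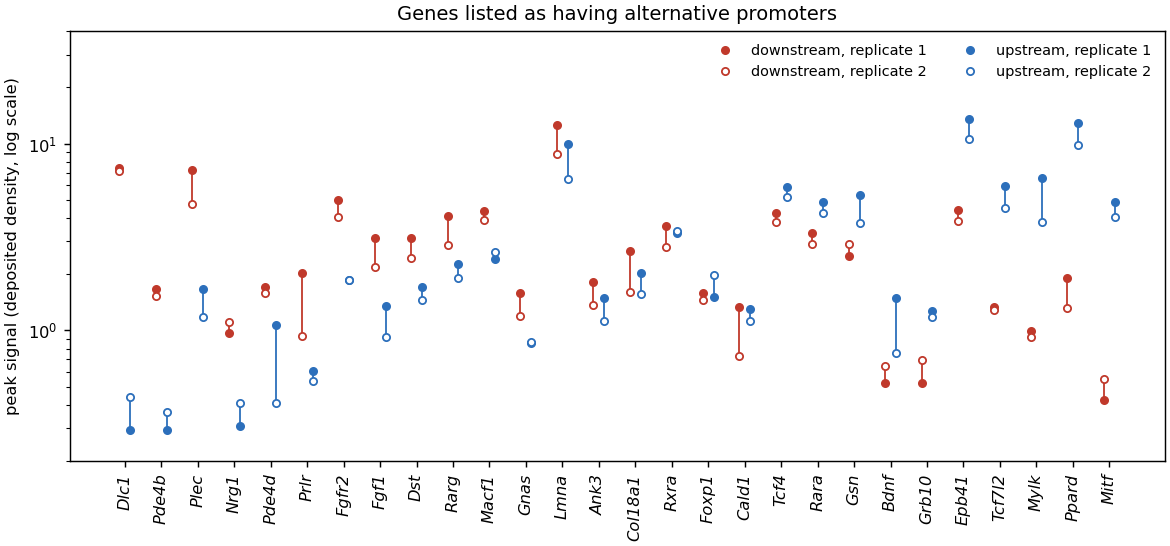
Peak signal on a log scale at the downstream (red) and the upstream promoter (blue) of the 28 member genes known for alternative promoters, with replicate 1 as filled and replicate 2 as open circles joined by a line. Genes run from the highest difference, downstream minus upstream, on the left to the lowest on the right. From Dlc1 on the left to Mitf on the right the red points move from above the blue to below. The ranges of Lmna, Ank3, Col18a1, Rxra, Foxp1 and Cald1 overlap.

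Of the 7 other gene lists 6 had medians below 0, the exception being growth factors and their receptors. The scale for the counts of all these lists is the 1124 members together. Of them 48.6% were 2-fold lower downstream and 11.8% higher, with medians of -1.06 in replicate 1 and -1.12 in replicate 2. No list was tested against these shares. Among the genes named from these lists, no coding transcript starts at the downstream promoter of Stat3, Cttn, Arhgef10l, Ptprs, Rere, Commd1 or Ppp1r9a. Of 34 transcription factor members 15 were 2-fold lower, 4 higher and 15 neither, with medians of -1.01 in replicate 1 and -0.93 in replicate 2. Stat3, a factor below cytokine receptors, had 5.69 in replicate 1 and 3.95 in replicate 2 at the downstream promoter, against 21.6 and 13.1 at the upstream promoter, and was 2-fold lower downstream. Creb5, of the CREB family, had its promoters within 2-fold, at 0.22. Gata3, a regulator of urothelium that is named here after its values were seen, had 4.45 in replicate 1 and 3.09 in replicate 2 downstream, against 1.73 and 1.49 upstream, and was 2-fold higher downstream. Its upstream region also holds a TSS of 9230102O04Rik. Eng, the endothelial receptor endoglin and likewise named after its values were seen, had 1.75 and 1.53 downstream, against 1.40 and 1.25 upstream.

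Of 35 members for actin, intermediate filament and adhesion genes 13 were lower, 2 higher and 20 neither, with medians of -0.66 and -0.65. Cttn, the cortical actin regulator cortactin, had 4.24 and 4.17 downstream, against 5.66 and 4.52 upstream, both promoters clearly open. Of 35 regulators of small GTPases 16 were lower, 4 higher and 15 neither, with medians of -0.88 and -1.23. Arhgap29, a GTPase-activating protein, had 4.85 in replicate 1 and 4.10 in replicate 2 at the downstream promoter, against 6.04 and 5.27 at the upstream promoter. Iqsec1, an exchange factor for Arf GTPases, had 4.74 and 3.13 downstream, against 5.46 and 3.35 upstream. Arhgef10l, a guanine nucleotide exchange factor, had 4.91 in replicate 1 and 2.43 in replicate 2 at the downstream promoter, against 8.81 and 6.09 at the upstream promoter, with the 2-fold difference in replicate 2 only. Peaks of replicate 1 alone gave Arhgef10l a value of -3.78. In Arhgap29 and Iqsec1 the promoters differed by under 2-fold in both libraries.

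The kinases, phosphodiesterases and second messenger genes had the lowest medians of the 8 lists, -1.31 and -1.45, with 19 of 32 members lower, 2 higher and 11 neither. Over all members 48.6% were lower and 11.8% higher, and the list's departure from these shares was not tested. Abl1, a tyrosine kinase whose promoters give different N-termini, had 5.03 and 3.78 downstream, against 8.02 and 6.14 upstream, the upstream region also at a TSS of Gm13427. Ptprs, a receptor tyrosine phosphatase, had 3.57 in replicate 1 and 2.81 in replicate 2 at the downstream promoter, against 5.83 and 5.24 at the upstream promoter, and Ppp2r5c, a subunit of protein phosphatase 2A, had 3.25 and 2.57 downstream, against 7.91 and 8.07 upstream. With protein-coding transcripts only, the outermost promoters of Ptprs were others and its value was 1.13. Of these 3 genes Ppp2r5c alone was 2-fold lower downstream, at a region that also holds a TSS of Gm19605. Of 13 growth factor and receptor genes 5 were lower, 4 higher and 4 neither, with medians of 0.32 and 0.55. Fgf2, a further Fgf ligand, had 1.43 in replicate 1 and 1.62 in replicate 2 at the downstream promoter, against 1.15 and 1.11 at the upstream promoter, within 2-fold.

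Of 20 chromatin and co-regulator genes 10 were lower, 4 higher and 6 neither, with medians of -1.19 and -1.28. Rere, a co-repressor, had 2.45 and 2.89 downstream, against 10.7 and 11.6 upstream. Smarcc1, a subunit of the BAF remodelling complex, had 15.2 in replicate 1 and 12.05 in replicate 2 at the downstream promoter, against 4.25 and 4.79 at the upstream promoter, its upstream region also at a TSS of Dhx30. Tet3, which oxidises methylcytosine, had 5.25 and 5.53 downstream, against 3.17 and 3.40 upstream, its downstream region also at a TSS of B230319C09Rik. So Rere was 2-fold lower downstream, Smarcc1 2-fold higher and Tet3 within 2-fold. Peaks of replicate 1 alone gave -2.71 in Rere and 1.94 in Tet3. Of 6 imprinted genes 2 were lower, 1 higher and 3 neither, with medians of -0.92 and -0.74. Commd1, a regulator of NF-kappa-B and copper handling, had 1.84 in replicate 1 and 1.14 in replicate 2 at the downstream promoter, against 10.3 and 8.31 at the upstream promoter. Inpp5f, an inositol phosphatase, had 1.33 and 1.24 downstream, against 14.98 and 11.6 upstream. Both were 2-fold lower downstream, and each has a region that also holds another gene's TSS, that of Gm28048 upstream in Commd1 and that of Gm43580 downstream in Inpp5f. Ppp1r9a, the scaffold neurabin, had 4.78 in replicate 1 and 4.42 in replicate 2 at the downstream promoter, against 1.39 and 1.24 at the upstream promoter, and was 2-fold higher downstream, but took the value -1.41 with regions counted up to 1 kb from a TSS.

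In the 161 genes with 3 or more promoter groups the strongest group was the most upstream one in 82 (50.9%), a middle one in 42 (26.1%) and the most downstream one in 37 (23.0%). The 6 genes shown here have 5 groups. They were taken from 16 such genes by number of regions and then spacing, a choice made after their values were seen. Abr, a regulator of small GTPases, had 1.22, 6.09, 4.75, 1.09 and 1.72 in replicate 1 along the gene, and 0.895, 3.17, 2.72, 1.06 and 1.65 in replicate 2, so promoters 2 and 3 were the strongest. Nav2, a neuron navigator of the cytoskeleton, had a single strong promoter, number 2, with 7.25 in replicate 1 and 5.83 in replicate 2, while its other promoters lay between 0.568 and 1.76. Etl4 was strongest at promoter 2 too, with 1.89 and 1.73. The outer difference was positive in all 3 genes, but -1.74 in Abr with transcripts of support level 1, -0.62 in Nav2 with protein-coding transcripts only and -1.20 in Etl4 with equal numbers of peaks.

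Dst had 1.70, 1.45, 3.42, 1.48 and 3.14 in replicate 1 along the gene, and 1.45, 1.02, 2.25, 1.28 and 2.43 in replicate 2, highest at promoter 3 in replicate 1 and promoter 5 in replicate 2. Its first region also holds a TSS of Bend6. Tns1, the adhesion protein tensin, had 1.30 in replicate 1 and 1.26 in replicate 2 at promoter 1, 2.54 and 2.17 at promoter 2 and 2.92 and 2.24 at promoter 5. Pde4d, a phosphodiesterase known for many promoters that give isoforms with different N-termini, had 1.07, 1.53, 0.489, 1.11 and 1.70 in replicate 1, and 0.408, 1.70, 0.472, 1.15 and 1.58 in replicate 2. Promoter 1 differed most between the libraries, and the log2 difference between its outer promoters was 0.67 in replicate 1 and 1.96 in replicate 2. With peaks of replicate 1 alone that of Pde4d was -0.62 and that of Tns1 2.49, and with peaks of replicate 2 alone that of Pde4d was 2.58. In Abr, Etl4, Nav2 and Tns1 the same promoter was highest in both libraries, and in Dst and Pde4d a different one.

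**Figure D5:**
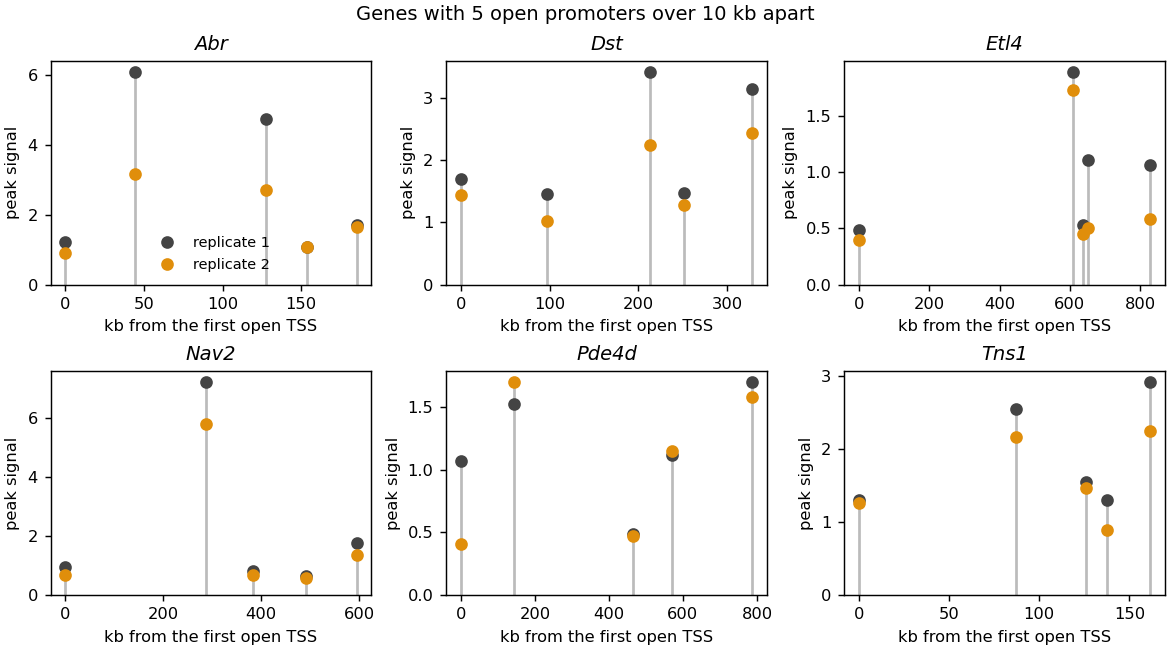
Peak signal of each open promoter group against its distance from the first open TSS, in kb, for 6 genes with 5 groups (dark points, replicate 1; orange points, replicate 2; grey lines run to 0). Nav2 has 1 promoter well above its others at 287.1 kb, and Abr has 2. The promoters of Pde4d lie between 0.408 and 1.70 and those of Tns1 between 0.887 and 2.92.

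At the edges of the rule, Map3k6 was the member with the closest promoters, 10031 bp apart, with 5.08 and 4.36 downstream and 4.85 and 3.76 upstream. Slc37a1 followed at 10049 bp, with 2.59 and 2.22 downstream and 2.16 and 1.98 upstream. Just outside were Nfyc at 9995 bp, with 2.46 and 1.74 downstream and 13.7 and 8.03 upstream, and Copg1 at 9989 bp, with 1.10 and 0.831 downstream and 16.9 and 14.5 upstream. The region farthest from its TSS that still counted was that of Fryl at 500 bp, with 1.32 and 0.831, and the nearest one left out was that of Traf3ip2 at 506 bp, with 2.07 and 1.81. Genes on both sides of these limits had signals in the range of the members.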

How the data were processed

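Bladders of 14-day-old male mice gave 2 DNase-seq libraries, replicate 1 (a male) and replicate 2 (a pool of 3 males). The deposited peak lists hold the authors' signal, a density per peak, for each library on its own, per the deposited notes. The deposited footprint lists carry a score, and only their positions were used. No source used here gives the aligner, the callers or the scaling of the signal. The signal came in whole steps of 0.00521 in replicate 1 and of 0.00799 in replicate 2. If a step is a cut and the scaling was alike, replicate 1 is 1.54 times as deep, and the total depth is unknown.

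The longer peak list of each library was used. Peaks with 1 bp or more in common were merged, and a merged region was shared if it held peaks from both libraries. Its signal is that of its highest peak. TSSs came from GENCODE M21 and sequence from RefSeq GRCm38.p6, both build mm10, and coordinates are 1-based. Signals were compared as log2 values within a library, with no pseudocount. Motifs were 15 consensus sequences.

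Members, the 8 gene lists and the motifs were chosen with earlier results of these data known. Named were the 8 genes at each end of the mean log2 difference, provided its sign was the same in both libraries. Added were 6 genes with most promoter groups and all members of the list of known alternative promoter genes. Each other list gave up to 3 genes whose weaker promoter was strongest. The genes at the thresholds and with the longest spacing were also named. Some genes that this rule names are not reported here. The scripts, in Python 3.11.15 with pandas 2.3.3, numpy 2.4.6, matplotlib 3.10.9 and scipy 1.17.1, were tested on simulated data. Alternatives covered the peak lists, the TSS window, the spacing, the transcripts, overlap, the choice of promoters and each library alone.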

Additional observations from a re-analysis of the deposited data

How the results depend on the processing

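In all 16 alternatives the median log2 difference, downstream minus upstream, stayed below 0. With the stricter peak lists there were 1883 regions, the median was -0.70 and 316 genes were 2-fold lower downstream. With equal numbers of peaks the median was -0.99, with region centres within 250 bp of the TSS -0.91 and within 1000 bp -1.21, and with TSSs over 5 kb apart -1.02. With TSSs over 50 kb apart 491 genes and 1301 regions were left, with a median of -1.02, 231 genes lower and 60 higher. With protein-coding transcripts only there were 663 genes and 1619 regions, a median of -0.66 and 268 genes lower. Without regions at another gene's TSS the median was -0.92, between the 2 most upstream promoters -1.03, and for the strongest promoters -0.98. With 1 library alone the number of genes ran from 1190 to 1658, that of regions from 3038 to 4564, the median from -1.54 to -1.17, genes lower from 634 to 978 and genes higher from 154 to 241, the larger counts without replicate 2. Genes lower were then 59.0% and genes higher 14.5%, against 53.3% and 12.9% without replicate 1, with the 2-fold difference asked of 1 library only. The list of replicate 1 holds more peaks. Of the alternatives added after seeing the data, genes with both promoters CpG-rich (179 genes, 440 regions) had a median of -0.29 with 53 lower and 40 higher, and transcripts of support level 1 (480 genes, 1070 regions) a median of -0.89 with 206 lower and 66 higher.

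With the stricter lists 17 of the 64 named genes no longer had both promoters open and so have no value, and with equal numbers of peaks 12. Over all alternatives 167 of 1024 values were missing because the gene was no longer a member, 51 of them where both promoters had to be CpG-rich. Of the 857 values left, 771 moved by less than the spread between libraries or kept their size, and 82 moved by more. The 771 were largely fixed in advance. Most alternatives use the same signals, so a value changes little unless other regions become outermost. With 1 library alone and the same regions, a value cannot leave the spread. The other 4 values reversed. Those were Ppp1r9a at -1.41 within 1000 bp and 3 genes with 1 library left out: Fgf1 (-1.51 to 1.26), Fgfr2 (-1.79 to 1.11) and Nrg1 (-0.50 to 1.66), the negative value without replicate 2 in Fgf1 and Fgfr2 and without replicate 1 in Nrg1. For each, other regions became outermost. Sign also changed in genes without a 2-fold call, among them Ptprs at 1.13 in 4 alternatives, Macf1 at -2.41 in 2, Grb10 at 0.67 with the stricter lists and with equal numbers of peaks, Gnas at -0.18 with the stricter lists, and Ank3 at -0.45 within 1000 bp. No paired analysis was possible because there is 1 group of libraries. A region with a peak in replicate 1 only did not count as open, so such promoters were left out. The total depth is unknown, and its part in this was not tested.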
